A study of Mus musculus with 3 samples.

Results

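The 10 genes described here, Ezh2, Ezh1, Eed, Suz12, Jarid2, Rnf2, Ring1, Bmi1, Kdm2b and Cbx7, encode subunits of the Polycomb repressive complexes 1 and 2 (PRC1 and PRC2). They were taken by symbol from a table of 23421 genes, and all 10 were found. RNA was sequenced from 129/SvEv mouse embryos at embryonic day (E) 6.5, the onset of gastrulation, in 3 libraries, 1 each of wild type (wt), tw18/+ and tw18/tw18. All embryos, the wild type ones included, came from matings between tw18/+ mice. The tw18 allele is a deletion on chromosome 17 that removes many genes, among them Ppp2r1a, which encodes the scaffold subunit of protein phosphatase 2A. The labels name the tissue as epiblast, whereas the study's methods describe the embryo proper, which keeps the visceral endoderm around the epiblast. How many embryos went into a library is not given in the sources used here. In its in situ hybridization at E6.5, the study describes the tw18/tw18 embryos as slightly younger. It also proposes that non-inbred genetic backgrounds might account for variation between tw18/tw18 embryos. The term mutant libraries is used below for those of tw18/+ and tw18/tw18. The part of stage and background in the results was not tested.

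Polycomb complexes keep developmental genes silent. PRC2 methylates lysine 27 of histone H3 through its catalytic subunit, EZH2 or EZH1, and needs EED and SUZ12 to do so, while JARID2 is an accessory subunit that takes part in its recruitment. PRC1 ubiquitinates histone H2A through RNF2 (RING1B) or RING1 (RING1A), each paired with a PCGF protein such as BMI1. In canonical PRC1 a CBX protein such as CBX7 binds the methylated H3K27, and in a variant PRC1 KDM2B brings the complex to CpG islands through a domain that binds unmethylated CpG. Embryos without core PRC2 subunits or without RNF2 are known to arrest around gastrulation, and the Hox genes are the best known targets of both complexes.

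All 10 members had RefSeq promoter windows on GRCm38.p6, 14 in all, each running from 250 bases before to 50 bases after an annotated start. These windows were rich in CpG, the dinucleotide that KDM2B recognises, with a median of 29 CpG and a range of 17 to 49, against a median of 7 over all 32851 windows. Of all windows, 31.4% held 17 or more CpG. Kdm2b and Jarid2 had several windows, and the Kdm2b windows with 47 and 49 CpG largely overlap. The windows of expressed genes alone were not compared. The sequence TTTNNCGC, a form of the site bound by the E2F cell cycle factors, was searched on both strands and occurred in 2 of the 14 member windows, those of Ezh2 and Suz12, and in 5.17% of all windows. A match of letters does not show that a factor binds. The 250 bases before the start are printed for 4 members, the pair that had its lowest FPKM in tw18/tw18 and its highest in tw18/+ (Ezh2 and Eed, an order that Ring1 shared, minus strand, chr6:47595031-47595280 and chr7:89980977-89981226) and the pair that had its highest in tw18/tw18 (Ezh1, minus strand, chr11:101226464-101226713, and Bmi1, plus strand, chr2:18676768-18677017), in the direction of transcription and with each CpG in capitals.
Ezh2: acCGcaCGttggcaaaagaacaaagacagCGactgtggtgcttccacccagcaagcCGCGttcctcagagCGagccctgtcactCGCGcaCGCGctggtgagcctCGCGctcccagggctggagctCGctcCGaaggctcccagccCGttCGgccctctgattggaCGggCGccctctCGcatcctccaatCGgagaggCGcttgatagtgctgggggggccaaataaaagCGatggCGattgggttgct
Eed: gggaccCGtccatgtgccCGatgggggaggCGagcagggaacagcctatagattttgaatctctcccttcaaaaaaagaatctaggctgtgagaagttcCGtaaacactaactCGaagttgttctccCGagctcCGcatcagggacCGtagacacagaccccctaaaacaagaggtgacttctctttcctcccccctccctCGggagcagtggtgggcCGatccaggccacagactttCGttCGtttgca
Ezh1: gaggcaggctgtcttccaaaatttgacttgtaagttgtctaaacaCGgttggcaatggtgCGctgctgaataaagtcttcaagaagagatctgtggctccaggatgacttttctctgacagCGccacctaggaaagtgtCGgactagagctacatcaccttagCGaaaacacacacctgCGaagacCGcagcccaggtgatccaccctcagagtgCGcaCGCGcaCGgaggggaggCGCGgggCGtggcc
Bmi1: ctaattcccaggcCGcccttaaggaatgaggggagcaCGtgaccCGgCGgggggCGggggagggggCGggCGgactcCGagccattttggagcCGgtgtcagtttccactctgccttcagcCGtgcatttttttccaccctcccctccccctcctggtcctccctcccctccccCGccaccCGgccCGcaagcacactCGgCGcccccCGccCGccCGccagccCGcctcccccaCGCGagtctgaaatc
These stretches held 23 CpG for Ezh2, 12 for Eed, 14 for Ezh1 and 21 for Bmi1. The number of CpG did not separate the first pair from the second.

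Levels are the normalized FPKM from Cuffdiff, fragments per kilobase of transcript scaled for the size of the library, so that genes of 1 library can be set side by side. Differences between libraries are log2 ratios of FPKM with no pseudocount, and a gene was past the fold when the higher FPKM was at least 1 and the ratio at least 2-fold. With 1 library per genotype there was no replicate and no test, and a difference between genotypes cannot be told apart from a difference between embryos of 1 genotype. The spacing of low FPKM values gave an estimate of the fragments behind each value, with tw18/+ about 1.42 and tw18/tw18 about 1.39 times as deep as wild type. The 95% intervals in brackets are computed from these estimated fragments and cover counting error only, since fragments copied by PCR are not independent molecules. The FPKM of Ppp2r1a was 146 in wild type, 81.7 in tw18/+ and 12.8 in tw18/tw18, the order of the labels. The tw18/tw18 value came from about 592 fragments, so Ppp2r1a was not absent although the deletion removes it. The source of this remaining signal was not tested. The epiblast markers, among them Dnmt3b and Pou5f1, were present in all 3 libraries but summed to an FPKM of 2237 in wild type, 2411 in tw18/+ and 1182 in tw18/tw18, and 10 of 10 were lower in tw18/tw18 than in wild type. Visceral endoderm markers, among them Apoa1 and Rbp4, summed to 1007, 969 and 1280 in the same order. Of these 13 markers, 12 were higher and 1 lower in tw18/tw18 than in wild type. Of the 13, 0 were past 2-fold, where 22% of all genes tested were. A lower share of epiblast cells and lower expression of these markers per cell cannot be told apart in such bulk samples. The part of these markers in the results was not tested.

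None of the 10 members was past the 2-fold limit in any comparison. Between tw18/tw18 and wild type 0 of 10 passed, where 22% of the 12917 genes tested did (2842 genes). Between tw18/+ and wild type 0 of 10 passed, where 9.72% of 12426 genes did. Between tw18/tw18 and tw18/+ it was again 0 of 10, where 20.5% of 12846 genes did. At a lower limit of 1.5-fold, Rnf2 alone was past it in tw18/tw18 against wild type, on the low side, against 40.2% of all genes tested. No member was past it in tw18/+ against wild type, against 20.1% of all genes. In tw18/tw18 against tw18/+, Bmi1 passed on the high side and Ezh2 and Eed on the low side, against 39.5% of all genes. These comparisons share libraries and are not independent of each other.

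Most members were somewhat lower in tw18/tw18. In tw18/tw18, 7 members were lower and 3 higher than in wild type, with a median log2 ratio of -0.29, or -0.081 after scaling the libraries to equal FPKM sums, and the counting interval of the ratio left out 0 for 9 of 10. Of the 12917 genes tested, 6513 were lower and 6404 higher. The share of all genes whose interval leaves out 0 is not given here. On the log2(FPKM + 1) scale the median was -0.28 for the members and -0.0074 over all genes tested. The typical size of a change regardless of direction, as the median absolute log2 ratio, was 0.38 for the members and 0.45 for all genes tested. In tw18/+ against wild type, 4 members were higher and 6 lower, the median log2 ratio was -0.078, and the median absolute log2 ratio was 0.30 against 0.23 for all genes. Of the 12426 genes tested there, 6269 were higher and 6157 lower. Against tw18/+ the members of tw18/tw18 had a median of -0.21, which became 0.040 at equal FPKM sums. In total the members summed to an FPKM of 287 in wild type, 286 in tw18/+ and 236 in tw18/tw18, where the sum over all genes was 444064, 455078 and 383409.

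**Figure D1:**
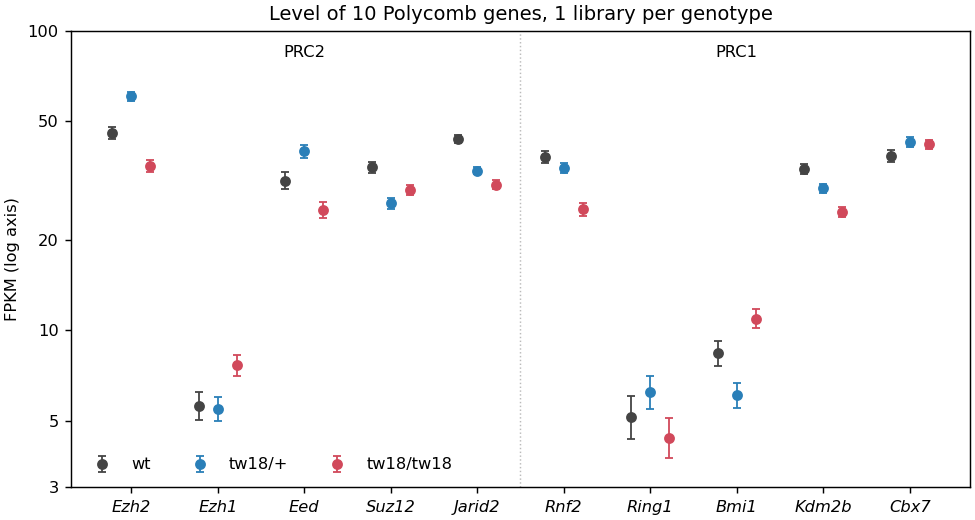
FPKM of the 10 Polycomb genes on a log axis, with 1 point per library and bars for the 95% counting interval. In the plot 7 genes sit at 24.9 or above in every library, and Ezh1, Ring1 and Bmi1 sit between 4.38 and 11.0.

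The 7 genes Ezh2, Jarid2, Cbx7, Rnf2, Suz12, Kdm2b and Eed formed an upper group in wild type, from 45.8 down to 31.7 FPKM, and Bmi1, Ezh1 and Ring1 a lower one at 8.38, 5.59 and 5.13. Ranked among expressed genes, those listed at an FPKM of 1 or more, Ezh2 stood at percentile 86.4 and Ring1 at percentile 29.9 in wild type. Many neighbours in this order were not resolved. In wild type the counting intervals of neighbours were apart only between Jarid2 and Cbx7, between Eed and Bmi1 and between Bmi1 and Ezh1. Ezh2 led in wild type and tw18/+, whereas in tw18/tw18 Cbx7 led with 41.9 and Ezh2 followed with 35.4, their intervals apart. The split into an upper and a lower group was the same in the 3 libraries.

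Ezh2 encodes the main PRC2 methyltransferase of dividing cells and lies on chromosome 6 from 47530139 to 47595341 (GRCm38, minus strand). Its FPKM was 45.8 in wild type, 60.7 in tw18/+ and 35.4 in tw18/tw18, from about 1785, 3347 and 1919 fragments. The tw18/tw18 library was the lowest and tw18/+ the highest, with no overlap of their counting intervals. The log2 ratio was -0.37 [-0.46, -0.28] in tw18/tw18 and 0.40 [0.32, 0.49] in tw18/+ against wild type, so the difference between the mutant libraries, -0.78 [-0.86, -0.69], was larger than that of either from wild type. Of all genes tested, 28.4% had a larger difference between the mutant libraries than Ezh2.

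Ezh1, on chromosome 11 from 101191115 to 101226463 (minus strand), encodes the second PRC2 methyltransferase, which is best known from cells that have stopped dividing. Its FPKM was 5.59, 5.48 and 7.65 in wild type, tw18/+ and tw18/tw18, from about 335, 465 and 637 fragments. Wild type and tw18/+ did not differ beyond counting error (-0.03 [-0.23, 0.18]), and tw18/tw18 was above both, by 0.45 [0.26, 0.65] over wild type on the log2 scale. Because the libraries' scaling cancels within a library, the balance of the pair was also read as a ratio. Ezh2 exceeded Ezh1 by 8.19-fold in wild type [7.29, 9.24], 11.1-fold in tw18/+ [10.05, 12.23] and 4.63-fold in tw18/tw18 [4.24, 5.08]. No pair of these intervals overlapped. Ezh2 remained the more abundant of the pair in every library.

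Eed encodes the subunit that reads methylated H3K27 and is needed for PRC2 activity, and lies on chromosome 7 from 89954654 to 89980983. Its FPKM was 31.7 in wild type, 39.8 in tw18/+ and 25.3 in tw18/tw18, the same order as Ezh2. The log2 ratios were -0.33 [-0.46, -0.20] for tw18/tw18 and 0.33 [0.21, 0.45] for tw18/+ against wild type. On the opposite strand E230029C05Rik overlaps 6.82% of its exonic bases, and whether strand was used in the authors' counting is not given in the sources used here.

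Suz12, the subunit that holds the PRC2 core together, had another order. Its FPKM was 35.2 in wild type, 26.6 in tw18/+ and 29.4 in tw18/tw18, from about 2194, 2352 and 2552 fragments. Both mutant libraries were below wild type, tw18/+ (-0.40 [-0.49, -0.32]) further than tw18/tw18 (-0.26 [-0.34, -0.17]). The 3 core genes Ezh2, Eed and Suz12 were thus each lower in tw18/tw18 than in wild type, but in tw18/+ Ezh2 and Eed were higher and Suz12 was lower. At equal FPKM sums their log2 ratios of tw18/tw18 to wild type shrank to -0.16, -0.12 and -0.045 in that order. Jarid2, on chromosome 13 from 44729474 to 44921643, was measured at 43.7, 34.2 and 30.7 FPKM in wild type, tw18/+ and tw18/tw18. It was lower in both mutant libraries, with log2 ratios of -0.35 [-0.42, -0.29] for tw18/+ and -0.51 [-0.57, -0.44] for tw18/tw18. Which mutant library was lower depended on the scaling, since the log2 ratio of -0.16 between tw18/tw18 and tw18/+ became 0.091 at equal FPKM sums.

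**Figure D2:**
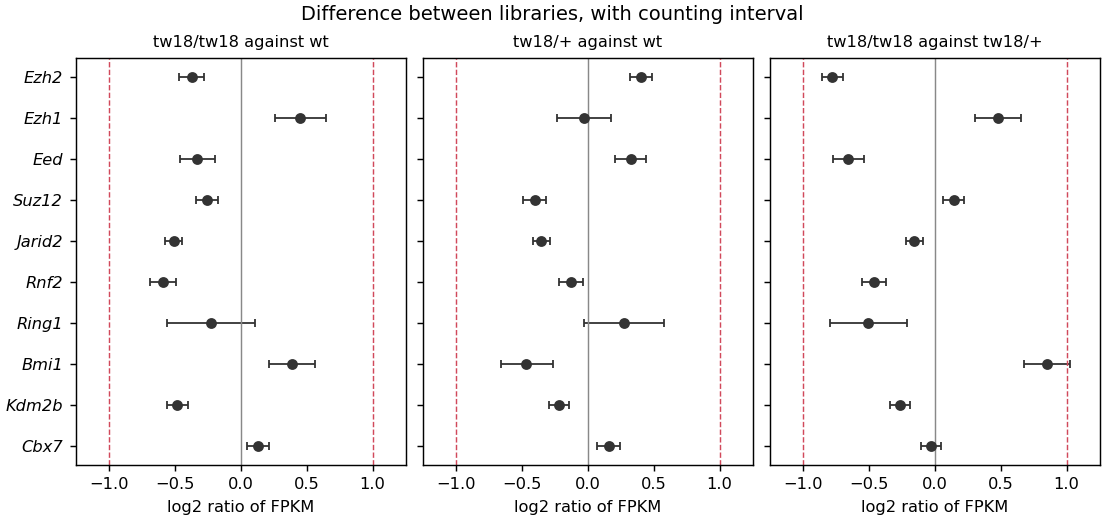
Log2 ratio of FPKM for the 10 Polycomb genes in each of the 3 comparisons, with bars for the 95% counting interval and dashed lines at a 2-fold change. Every point lies between the dashed lines; Bmi1 against tw18/+ is the highest at 0.85 and Ezh2 against tw18/+ the lowest at -0.78.

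Rnf2 encodes RING1B, the main ubiquitin ligase of PRC1 in early embryos, and lies on chromosome 1 from 151458004 to 151500955. Its FPKM was 38.1 in wild type, 34.9 in tw18/+ and 25.4 in tw18/tw18. The tw18/tw18 value was 66.6% of wild type, a log2 ratio of -0.59 [-0.69, -0.49], the largest difference of a member in this comparison as deposited. At equal FPKM sums it was -0.37 and that of Ezh1, at 0.66, was larger. The interval reaches across the 1.5-fold limit, and 3.83% of its exonic bases are overlapped by Trmt1l on the opposite strand.

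Ring1, which encodes the related ligase RING1A, lies on chromosome 17 from 34020792 to 34024680, outside the tw18 deletion. Its FPKM was 5.13, 6.22 and 4.38 in wild type, tw18/+ and tw18/tw18, from about 143, 245 and 170 fragments, the fewest of any member. Neither mutant library differed from wild type beyond counting error (tw18/tw18 -0.23 [-0.56, 0.11], tw18/+ 0.28 [-0.03, 0.58]), whereas tw18/tw18 was below tw18/+ by more than counting error (-0.50 [-0.79, -0.21]). Rnf2 exceeded Ring1 by 7.43-fold in wild type [6.25, 8.86], 5.61-fold in tw18/+ [4.92, 6.44] and 5.79-fold in tw18/tw18 [4.93, 6.81]. These 3 intervals overlapped, unlike those of Ezh2 and Ezh1.

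Bmi1 encodes PCGF4, a partner of the RING1 proteins in canonical PRC1 that is known for repressing Cdkn2a, and lies on chromosome 2 from 18677018 to 18686629. Its FPKM was 8.38 in wild type, 6.08 in tw18/+ and 11.0 in tw18/tw18, from about 426, 438 and 775 fragments. Its order was the opposite of that of Ezh2 and Eed, with tw18/+ lowest and tw18/tw18 highest. The log2 ratio was 0.39 [0.22, 0.56] for tw18/tw18 and -0.46 [-0.66, -0.27] for tw18/+ against wild type. Between the mutant libraries it was 0.85 [0.68, 1.02], the largest difference of any member, and it passed the 2-fold limit after scaling to equal FPKM sums (1.10, and 1.07 with Lars2 left out of the sums). Of the 50-base words of Bmi1 transcripts, 16.7% also occur in other genes, mainly Gm5946 and AC114652.1, a source of error that the counting interval does not cover, while Jarid2 and Ring1 share none. Pcgf2, which encodes the closest relative of BMI1, was the more abundant of the pair, with an FPKM of 33.9, 35.6 and 23.6. The ratio of Bmi1 to Pcgf2 was 0.247 in wild type [0.220, 0.276], 0.171 in tw18/+ [0.153, 0.190] and 0.463 in tw18/tw18 [0.422, 0.508], again with no overlap between libraries.

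Kdm2b, on chromosome 5 from 122870665 to 122989823, was measured at 34.7 FPKM in wild type, 29.8 in tw18/+ and 24.9 in tw18/tw18. It was lower in both mutant libraries, by log2 ratios of -0.22 [-0.30, -0.14] for tw18/+ and -0.48 [-0.56, -0.40] for tw18/tw18. Of its 50-base words 12.5% occur in other genes, and Rnf34 overlaps 5.77% of its exonic bases on the opposite strand.

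Cbx7, on chromosome 15 from 79915807 to 79971119, encodes the CBX protein best known from pluripotent cells. Its FPKM was 38.2 in wild type, 42.6 in tw18/+ and 41.9 in tw18/tw18, and the log2 ratio of tw18/tw18 to wild type was 0.13 [0.05, 0.22]. The mutant libraries did not differ beyond counting error (-0.03 [-0.10, 0.05]), and the sign of that small difference turned under 4 of 4 other scalings. Set against Cbx2, Cbx6 and Cbx8, other CBX genes of canonical PRC1, Cbx7 was the most abundant in every library. The ratio of Cbx7 to Cbx2 was 1.44 in wild type, 2.13 in tw18/+ and 2.04 in tw18/tw18, and that to Cbx6 was 3.51, 5.06 and 4.49, so in both the wild type library was lowest. The ratio to Cbx8 was 15.6, 14.7 and 7.17, so in this pair the tw18/tw18 library was lowest. The level of Cbx8 was 2.44, 2.90 and 5.84 FPKM.

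**Figure D3:**
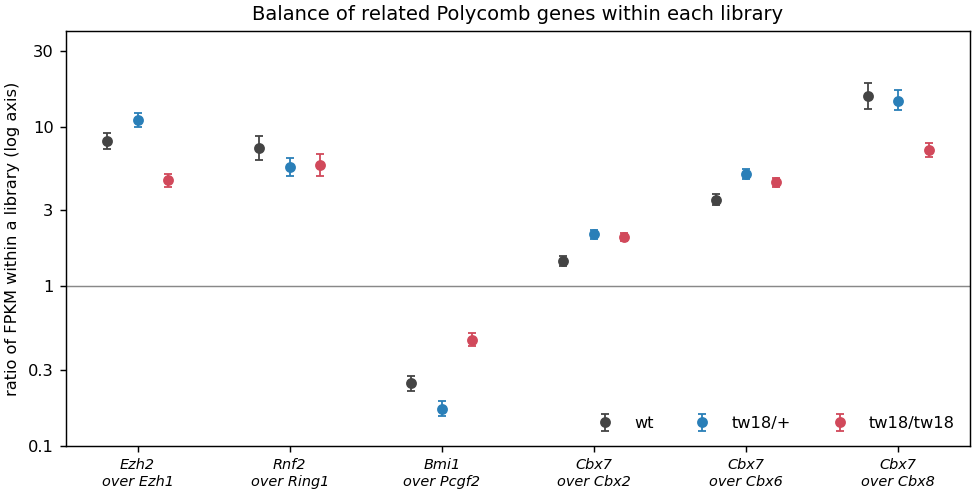
Ratio of FPKM between related Polycomb genes within each library, on a log axis, with bars for the 95% counting interval and a line at equal levels. Ezh2 over Ezh1 is 11.1 in tw18/+, 8.19 in wt and 4.63 in tw18/tw18, and Bmi1 over Pcgf2 is 0.171, 0.247 and 0.463 in the same order.

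Other genes of the complexes were read from lists written from general knowledge. Of 36 further genes of PRC2, PRC1, the H2A deubiquitinase PR-DUB and the H3K27 demethylases found in the table, 35 reached an FPKM of 1 in tw18/tw18 or wild type, and 4 were past 2-fold, all higher in tw18/tw18. Over all genes tested 15.1% were past 2-fold on the high side and 6.94% on the low side. The 4 genes were Phf19 and Lcor of PRC2 and Phc3 and Cbx8 of PRC1, all with low levels, at most 2.44 FPKM in wild type. Phf19 passed the minimum FPKM only through tw18/tw18 and could therefore only be higher. Phf19, an accessory subunit that binds methylated H3K36, had an FPKM of 0.368, 0.693 and 1.99 in wild type, tw18/+ and tw18/tw18, and Phc3, a polyhomeotic subunit, 1.52, 1.73 and 4.50. Lcor, whose locus also encodes the PRC2 partner PALI1, had 1.29, 1.36 and 3.65, and the table does not tell the products of that locus apart. None of the 4 PR-DUB genes tested and neither demethylase gene was past the limit in tw18/tw18 against wild type. Between tw18/+ and wild type 1 of 34 further genes was past it, the PR-DUB gene Asxl3, with 1.11, 0.497 and 0.941 FPKM. Of the demethylase genes, Kdm6a had 20.8, 19.8 and 26.1 FPKM and Kdm6b 32.7, 27.2 and 36.2.

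Genes that Polycomb is known to silence mostly had low levels. Of 39 Hox genes in the table, 30 stayed under an FPKM of 1 in every library, and 0 of the 19 Hoxb and Hoxc genes reached it. The other 9, all of the Hoxa and Hoxd clusters, were past 2-fold and higher in tw18/tw18 than in wild type, beside 15.1% of all genes. Of these, 5 had an FPKM of at least 1 already in wild type, and the other 4 entered only through tw18/tw18, where they had to be higher. Over all 39, 18 were higher, 7 lower and 14 equal. The same unfiltered count over all genes is not given here. Wild type, the shallowest library, listed 8328 genes at 0, against 7178 in tw18/tw18. Hoxa10 had an FPKM of 7.64, 11.8 and 32.9 in wild type, tw18/+ and tw18/tw18, Hoxa11 had 3.67, 6.87 and 30.8, and Hoxd10 had 2.90, 4.71 and 19.1. Summed over the 39, the FPKM was 21.2, 31.2 and 118.

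Most markers of some other tissues, the maternal decidua among them, were also higher in tw18/tw18 than in wild type. In tw18/+ the summed Hox and erythroid FPKM were above wild type, and the decidual, endothelial, immune and extraembryonic ectoderm sums were below it. Single decidual markers went both ways there, 7 of 12 higher than wild type, Hoxa10 and Hoxa11 among them, and 5 lower. Of 12 decidual stroma markers, a list that also holds Hoxa10 and Hoxa11, 9 were past 2-fold and higher in tw18/tw18 than in wild type and 1, Prl8a2, was lower. Without Hoxa10 and Hoxa11 it was 7 of 10. Beside these and the counts below, 15.1% of all genes tested were past 2-fold and higher and 6.94% lower. The summed FPKM of the decidual list was 1731, 365 and 1014 in wild type, tw18/+ and tw18/tw18 with Prl8a2, of which Prl8a2 made up 1504, 155 and 377, and 227, 210 and 637 without it. None of the 12 was at 0 in any library, and Des, the highest after Prl8a2 among the values of any library, had an FPKM of 45.5, 65.9 and 201. Endothelial markers, among them Cdh5 and Pecam1, summed to 42.0, 26.7 and 86.1, with 5 of 8 past 2-fold and higher in tw18/tw18 than in wild type, and immune markers, among them Lyz2 and Csf1r, to 22.7, 15.2 and 41.5, with 3 of 6 tested. Of 8 extraembryonic ectoderm markers tested, 6, among them Tfap2c, were past 2-fold and higher and Eomes was lower. The list summed to 103, 81.0 and 91.2, of which Eomes made up 77.1, 58.0 and 37.0. The study counts Eomes among mesoderm control genes. Each of the decidual, endothelial, immune and extraembryonic ectoderm counts held at least 1 marker under an FPKM of 1 in wild type. Such markers entered only through tw18/tw18, where they had to be higher. Erythroid genes summed to 52.5, 56.3 and 177, most of it from Hba-a1 and Hba-a2, near-identical copies whose fragments cannot be assigned with certainty. Hbb-bs, an adult beta-globin gene, had 0.018, 0.555 and 47.6 FPKM, while the embryonic globin genes Hbb-y and Hba-x were listed at 0 in the 3 libraries. The part of these tissues in the Hox values was not tested.

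Of 25 other known targets on the list, nearly all of them developmental regulators, 7 reached an FPKM of 1 in tw18/tw18 or wild type, of which 4 were past 2-fold and higher in tw18/tw18 and 1 was lower, beside 15.1% higher and 6.94% lower over all genes. Of the 7, 3 were under an FPKM of 1 in wild type and entered only through tw18/tw18, where they had to be higher, Nkx2-9 and Cdkn2a among them. Over all 25, 14 were higher, 5 lower and 6 equal. As with the Hox genes, the same count over all genes is not given here. Of the 25, 12 were listed at 0 in wild type and 9 in tw18/tw18. Hand1, a regulator of trophoblast and extraembryonic mesoderm, was by far the most abundant of the 4 that were higher, with an FPKM of 9.31, 14.0 and 34.6 in wild type, tw18/+ and tw18/tw18. Nkx2-9 was listed at 0 in wild type, with 0.124 and 1.95 in the others. Cdkn2a, the cell cycle inhibitor locus that Bmi1 is known to repress, was listed at 0 in wild type and had 0.502 in tw18/+ and 1.40 in tw18/tw18, from about 8 and 21 fragments. Cdkn2a and Bmi1 were thus both highest in tw18/tw18. The other genes of the list, among them the neural regulators Pax6 and Olig2, stayed under an FPKM of 1 in both libraries.

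**Figure D4:**
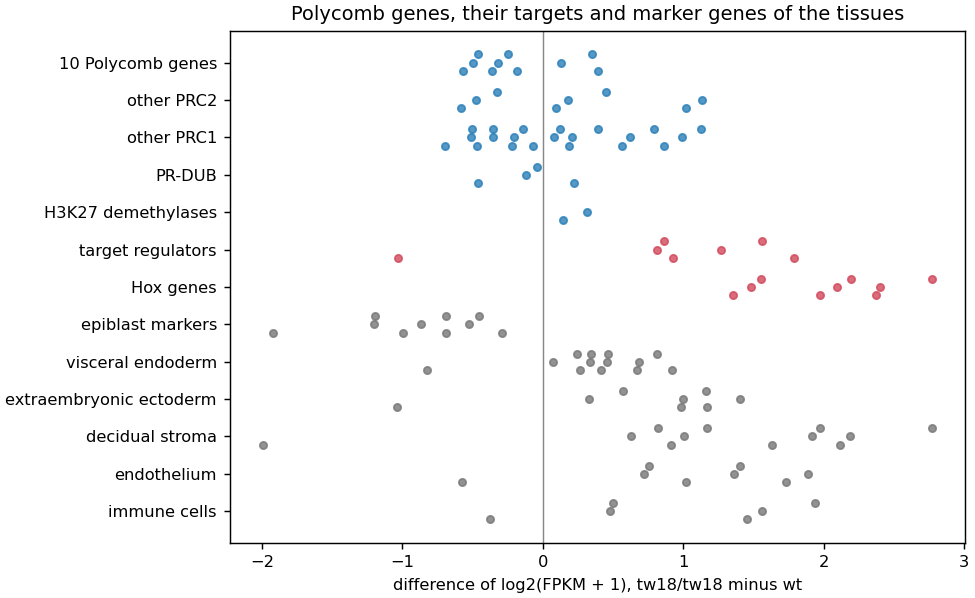
Difference of log2(FPKM + 1) between tw18/tw18 and wt for each gene of the named lists that reached an FPKM of 1 in either library, 1 point per gene. The 10 Polycomb genes lie within 1 unit of zero, the 9 Hox genes all lie above 1, and the epiblast markers all lie below zero.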

How the data were processed

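RNA from E6.5 embryos was sequenced in 3 libraries, 1 per genotype, with paired-end reads of 50 bases. After TopHat mapping to mm10 (GRCm38), the authors deposited FPKM values from Cuffdiff for 23421 gene symbols; the processing notes name TopHat2, Bowtie 1.0.0 and Cufflinks 2.2.1, and the annotation and the number of embryos are not given in the sources used here. FPKM are relative values, and how far a very abundant gene lowers the others depends on how the libraries were scaled to each other. As deposited, the median difference of log2(FPKM + 1) over all genes tested was -0.0074 in tw18/tw18 and 0.0026 in tw18/+ against wild type. Scaling to equal FPKM sums replaces the scaling as deposited.

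Ratios were computed in Python 3.11.15 (pandas 2.3.3, numpy 2.4.6), intervals with scipy 1.17.1 and plots with matplotlib 3.10.9. Genes were tested where the higher FPKM was at least 1, with a limit of 2-fold. Fragments were estimated from the spacing of low values (175, 272 and 220 values in wild type, tw18/+ and tw18/tw18, of which 78.9%, 77.9% and 77.3% lay within 0.2 of a whole number), GENCODE M21 transcript lengths and an allowance of 150 bases. Intervals are exact Poisson for a level and exact binomial (Clopper-Pearson) for a ratio. Positions are from GENCODE M21 and promoter windows from RefSeq (GRCm38.p6). The calls and the ratio interval were tested on simulated Poisson counts well above the minimum FPKM. The estimate of fragments and genes near the minimum were not part of that simulation.

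The members and lists (other PRC2 and PRC1 genes, PR-DUB, H3K27 demethylases, Hox genes, other targets, markers of epiblast, visceral endoderm, extraembryonic ectoderm, decidual stroma, endothelium, immune and erythroid cells) were chosen with earlier results of these data known. Named genes were all members, Ppp2r1a, partners of the paralog pairs, at most 12 listed genes past 2-fold in tw18/tw18 against wild type with the largest change, and the 2 markers per list with the highest FPKM in any 1 library. Phf19, Lcor, Phc3, Asxl3, Kdm6a, Kdm6b, Pax6, Olig2, Hbb-bs, Hbb-y and Hba-x were named after their values were seen. Some single values of the lists are not reported here. Alternatives were pseudocounts of 0.1 and 1, other filters, 1.5-fold, 4 scalings and tw18/+ as the reference.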

Additional observations from a re-analysis of the deposited data

How the results depend on the processing

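With 1 library per genotype no library could be left out and no test was possible. No paired analysis was possible because each genotype has 1 library. Of 210 member log2 ratios recomputed with other pseudocounts, scalings or thresholds, 170 stayed inside the counting interval of the reported ratio, 34 moved outside it but stayed under the limit, 4 passed the limit only because it was lowered to 1.5-fold, and 2, both of Bmi1 in tw18/tw18 against tw18/+, passed 2-fold after scaling (1.10 at equal FPKM sums, 1.07 with Lars2 left out of them). In 6 cases the sign turned, for Cbx7 and Jarid2 in tw18/tw18 against tw18/+. Equal FPKM sums raise every log2 ratio of tw18/tw18 to wild type by 0.21, and the members' median against tw18/+ became 0.040, or 0.0086 without Lars2.

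The number of members past the limit moved from 0 to 1 lower in tw18/tw18 against wild type and to 1 higher and 2 lower against tw18/+ at 1.5-fold, and to 1 higher against tw18/+ at equal FPKM sums with or without Lars2. In tw18/tw18 against wild type, the other PRC2 genes past the limit numbered 1 higher with an FPKM of at least 2, against 2, and 1 lower at 1.5-fold, against 0. Other PRC1 genes higher numbered 1 with a pseudocount of 1, 6 at 1.5-fold and 5 at equal FPKM sums with or without Lars2, against 2, and 1 was lower at 1.5-fold, against 0. Without a filter on low values 10 of the other target genes were higher and 5 lower, and 18 Hox genes were higher and 6 lower. The share over all genes without the filter is not given here. With an FPKM of at least 2 the other target genes numbered 2 higher and 0 lower. The cause of these moves was not tested. The depth limits Ring1 most.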
